A study of Canis lupus familiaris with 12 samples.

Results

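To examine signalling through the tumor necrosis factor (TNF) superfamily in lymph nodes after elective nodal irradiation (ENI), 31 genes of a canine panel were compared between nodes that were irradiated and nodes that were not. The genes were chosen by name among the 780 endogenous genes of the panel. They comprise 14 ligands, 13 receptors and 4 TNF receptor-associated factors (TRAFs). The B cell survival factors BAFF and APRIL and their receptors, 5 genes, were left out. The nodes came from 6 client-owned pet dogs with sinonasal cancer, each given stereotactic body radiation therapy (SBRT) to the nasal tumor at 10 Gy in each of 3 fractions. In 3 dogs aged 7 to 14 years the SBRT field also took in the submandibular and retropharyngeal nodes of both sides (irradiated nodes). In the other 3 dogs, aged 3 to 9 years, only the tumor was treated (non-irradiated nodes). The methods place removal of the mandibular node on the tumor's side 2 weeks after SBRT. No node from before treatment and none from an untreated dog entered the comparison, and age differed along with treatment.

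Transcripts were counted by NanoString nCounter, in which barcoded probes are hybridised to RNA and counted without amplification. Each group has 6 samples, 2 from each dog, and what sets the 2 samples of a dog apart is not stated in the labels. The values used are 1 normalized count per gene and group, which is the authors' geometric mean, and the authors' standard deviation (SD) of that group. Each SD was assumed to be over the 6 samples of its group. With no sample shown on its own, overlap of the groups cannot be read, and the depth of each sample is unknown. The labels call the tissue lymph node, whereas the extraction text speaks of frozen tumor. Genes that mark a lymph node were measured in both groups: the follicular chemokine CXCL13 had 17547 normalized counts after ENI and 9724 without it, and the T zone chemokine CCL19 had 2013 against 1990.

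Ligands of the TNF superfamily act as trimers, on the cell surface or shed from it, and cluster their receptors on neighbouring cells. Receptors with a death domain can start apoptosis, and many receptors of the family signal through TRAF adaptors, which lead to NF-kappaB and the stress kinases. In lymph nodes the family is known for building the tissue through lymphotoxin and RANKL, for the help that T cells give to B cells and dendritic cells through CD40, and for the co-stimulation of T cells through CD27, OX40 and their relatives.

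None of the 31 genes passed the threshold. An adjusted p under 0.05 by limma's moderated test with Benjamini-Hochberg adjustment over all endogenous genes was reached by 0 members, where 28 of the 780 genes (3.59%) were called. At an unadjusted p under 0.05 stood 9 members (29.0%), against 171 genes of the panel (21.9%). Of these 9, 3 were higher in irradiated nodes, where 8.46% of the panel was at that level and higher, and 6 were lower, where the panel had 13.5%. Over all members 14 were higher and 17 lower, with a median log2 ratio of -0.03, beside a median of -0.05 over the panel. By role, 10 of 14 ligands and 7 of 13 receptors were lower and all 4 TRAFs were higher, and these counts were not tested against each other. A log2 ratio of at least 0.5 in size was found for 8 members (25.8%) and for 21.2% of the panel. Shares this close to those of the panel are no result about the family.

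**Figure D1:**
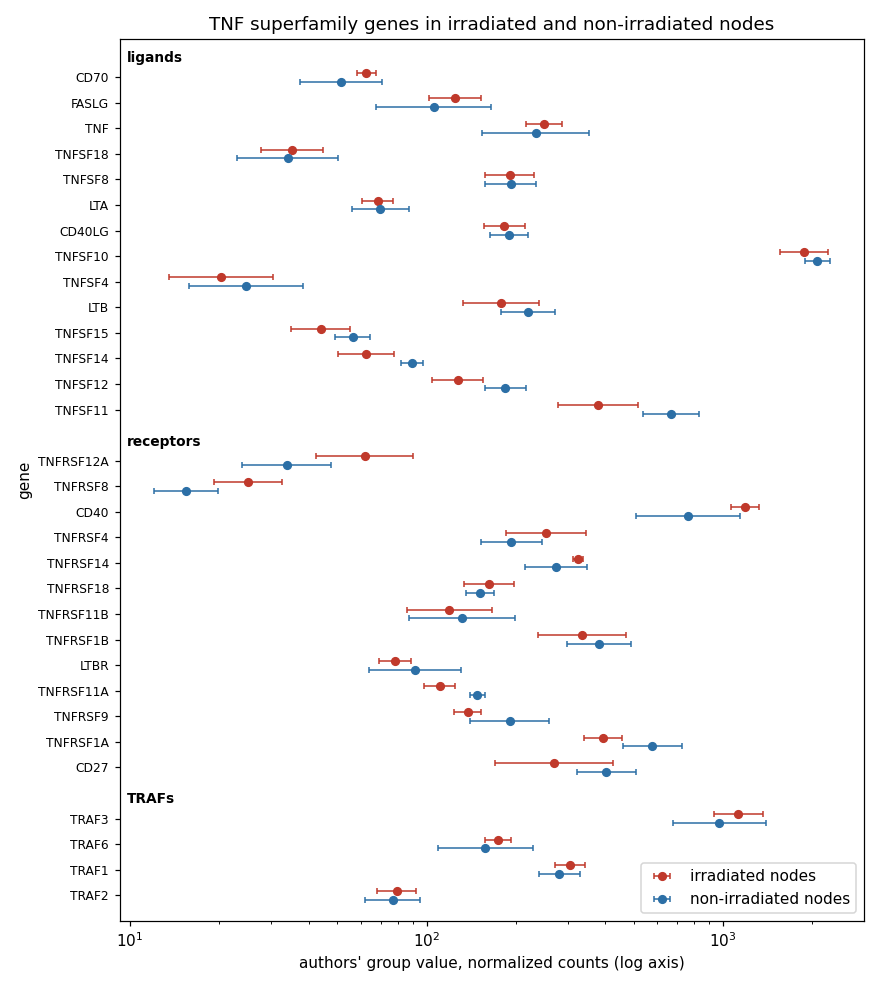
Red points (irradiated nodes) and blue points (non-irradiated nodes) give the authors' group value of each of the 31 members in normalized counts on a log axis. Bars are 1 SD, assumed to be over the 6 samples of a group, after conversion to the log scale. The bars of TNFSF11, TNFSF12, TNFSF14, TNFRSF1A and TNFRSF11A do not overlap, and the bars of the other members overlap. Those of TNFSF11, TNFSF12 and TNFRSF1A lie close. The share of panel genes with bars apart was not counted, so bars apart do not set these members off from the panel. Bars of 1 SD also do not show whether single samples of the groups overlap.

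The 95% intervals of the members reached from 0.28 to 0.68 log2 units on either side of the ratio, with a median of 0.46. The intervals and p-values measure the spread between samples and are too small where the samples of a dog resemble each other. If both samples of each dog are taken to be identical, 0 members had an unadjusted p under 0.05, their smallest adjusted p was 0.999, and 4.49% of the panel was under that unadjusted p. With each SD taken over 3 values a group, the smallest adjusted p of the members was 0.669. In both of these cases 0 of the 780 genes had an adjusted p under 0.05.

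**Figure D2:**
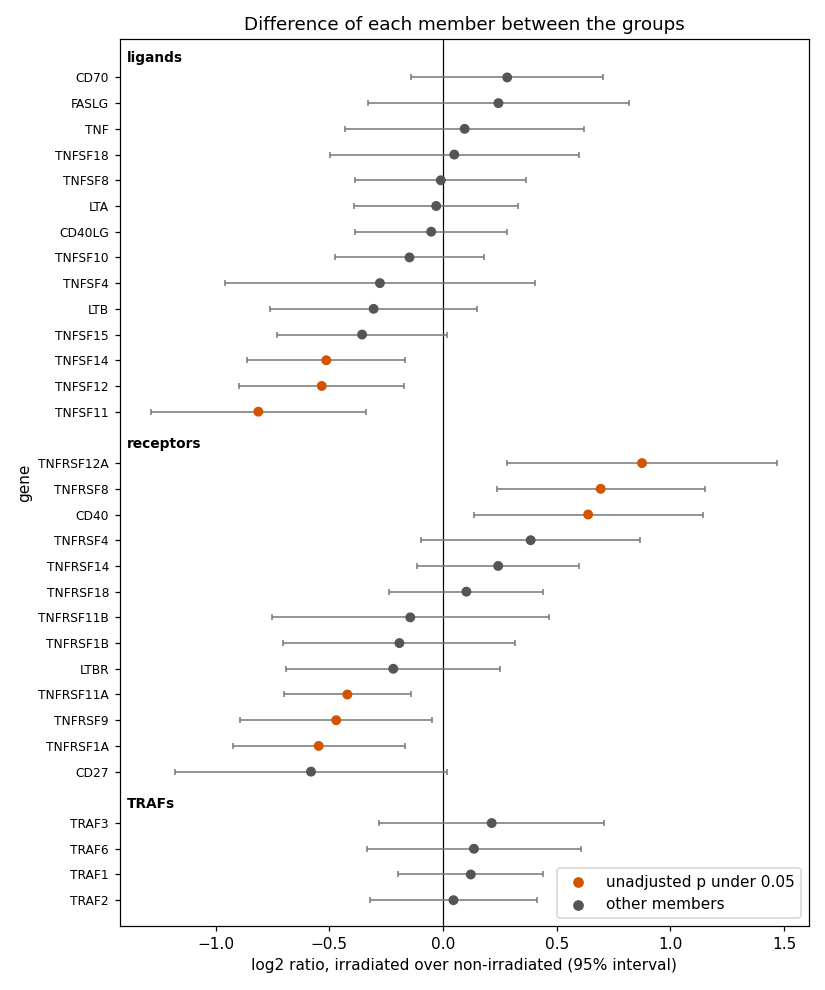
Points give the log2 ratio (irradiated over non-irradiated) of each member, and bars its 95% interval from limma's moderated test over 6 samples a group. The 9 members at an unadjusted p under 0.05 are orange: TNFSF11, TNFSF12 and TNFSF14 among ligands and TNFRSF1A, TNFRSF9, TNFRSF11A, CD40, TNFRSF8 and TNFRSF12A among receptors.

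The most separated ligand was TNFSF11, which encodes RANKL, a cytokine of stromal cells and activated T cells that mouse lymph nodes require for their development. It had 379 normalized counts (SD 128) in irradiated and 666 (SD 149) in non-irradiated nodes. The log2 ratio was -0.81 ± 0.22 SE (95% interval -1.28 to -0.34, adjusted p = 0.0518), which lies just outside the threshold. Of 12 alternatives with an adjusted p, 9 also left TNFSF11 outside (adjusted p from 0.0531 to 0.999). The other 3 put it just inside, namely a trend of the variance on level (adjusted p = 0.0471), genes under 20 normalized counts left out (0.0461) and 10 normalized counts added to both values (0.0482). Its receptor RANK, encoded by TNFRSF11A and carried by dendritic cells, macrophages and lymphatic endothelium, was low on the same side, at 111 (SD 13.4) against 148 (SD 8.31) normalized counts. The log2 ratio of TNFRSF11A was -0.42 ± 0.13 SE (adjusted p = 0.0793), and 10 of the 12 alternatives left it outside as well (adjusted p from 0.0666 to 0.999). It came inside only with variances that were not moderated across genes (adjusted p = 0.0156 with equal and 0.04 with unequal variances of the groups). All 5 measured dendritic cell markers were also lower, at a summed 2184 against 2827 normalized counts with 0 past the threshold. Most of that sum was CCR7, at 1199 against 1710 (log2 ratio -0.51 ± 0.37 SE). In mice, not in these dogs, the study also read CCR7 as a protein on CD4 T cells. The part of dendritic cells in the TNFRSF11A value was not tested.

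The third gene of this axis, TNFRSF11B, encodes the soluble decoy receptor osteoprotegerin, which captures RANKL. It had 119 (SD 42.5) against 132 (SD 61.2) normalized counts, a log2 ratio of -0.14 with an interval from -0.75 to 0.46. Stromal markers stood beside these values. Of 5 measured fibroblastic stroma markers PDGFRA (log2 ratio -1.67 ± 0.17 SE, adjusted p = 7.57e-05) and PDGFRB (-0.92 ± 0.18 SE, adjusted p = 0.012) fell, while COL1A1 (0.24), COL3A1 (0.03) and THY1 (-0.30) did not pass. Their summed value was 2807 against 3335 normalized counts, with no marker under 126. In bulk RNA, fewer cells of a type and less RNA per cell cannot be told apart, and the part of stromal cells in the TNFSF11 value was not tested.

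TWEAK and its receptor stood on opposite sides. TNFSF12, which encodes TWEAK, a cytokine of monocytes and macrophages, had 127 normalized counts (SD 25.6) in irradiated and 184 (SD 30.2) in non-irradiated nodes, a log2 ratio of -0.53 ± 0.17 SE (adjusted p = 0.0825). TNFRSF12A, which encodes Fn14, a receptor that injured epithelial and mesenchymal cells display, had 61.9 (SD 25.8) against 33.7 (SD 12.8). Its log2 ratio of 0.88 ± 0.28 SE (95% interval 0.28 to 1.47, adjusted p = 0.0825) was the highest of the 31 members. Whether ligand and receptor differed from each other was not tested, because that needs values of single samples.

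Markers of macrophages and of epithelium were read beside this pair. Of 6 macrophage markers 5 were lower in irradiated nodes, with a median of -0.37 and a summed value of 3100 against 5112 normalized counts, and 0 passed. MARCO gave 1109 (SD 2197) against 2272 (SD 1296) of that sum, a log2 ratio of -1.03 ± 0.55 SE. The marker that was higher was CD163 (0.07). Of 7 epithelial markers 5 were higher, and the keratin KRT18 rose (log2 ratio 1.09 ± 0.23 SE, adjusted p = 0.0215). Lower were the cadherin CDH1, at 205 against 285 normalized counts (log2 ratio -0.48 ± 0.16 SE, adjusted p = 0.109), and KRT8 (-0.02). KRT7 stood at 0.61 ± 0.54 SE. The epithelial sum was 602 against 551 normalized counts, with EPCAM at 98.2 against 73.4 and MUC1 at 10.3 against 8.43, the latter near the lowest values of the panel. Their part in the TNFSF12 and TNFRSF12A values was not tested.

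**Figure D3:**
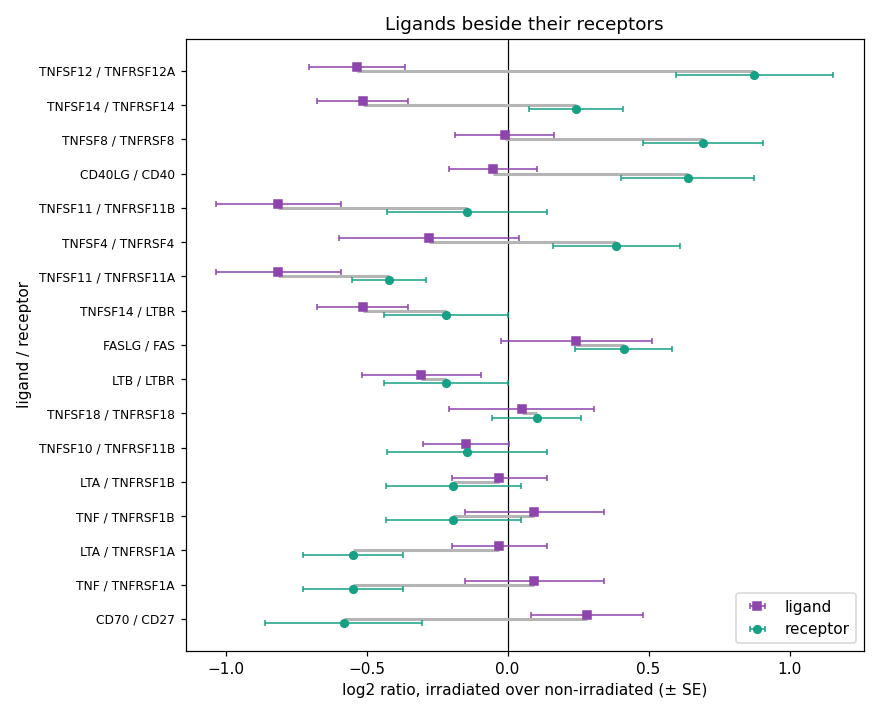
Log2 ratios of ligands (purple squares) and receptors (green circles) of 17 ligand and receptor pairs in which both genes were measured, ± SE over samples, joined by a grey line. TNFSF12 and TNFRSF12A lie farthest apart, at -0.53 and 0.88, and TNFSF10 and TNFRSF11B lie side by side at -0.15 and -0.14.

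CD40, one of the co-stimulatory genes the study singled out, through which B cells, dendritic cells and macrophages receive help from T cells, had 1185 normalized counts (SD 131) in irradiated and 762 (SD 344) in non-irradiated nodes. The log2 ratio was 0.64 ± 0.23 SE (95% interval 0.13 to 1.14, adjusted p = 0.127). Its SD was 11.1% of the group value in irradiated and 45.2% in non-irradiated nodes, so the non-irradiated samples spread more. The ligand CD40LG, made by activated helper T cells, had 183 (SD 29.6) against 190 (SD 28.7), a log2 ratio of -0.05 whose interval runs from -0.39 to 0.28. B cell markers were higher in 7 of 8 cases with 0 past the threshold, at a summed 11676 against 10194 normalized counts, and their part in the CD40 value was not tested.

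TNFRSF8 encodes CD30, a receptor of activated lymphocytes. It had 25 normalized counts (SD 6.95) in irradiated and 15.4 (SD 4.08) in non-irradiated nodes, of which the latter is the lowest group value of any member, with a log2 ratio of 0.69 ± 0.21 SE (adjusted p = 0.0778). With 10 normalized counts added to both values the log2 ratio of TNFRSF8 was 0.46. The CD30 ligand TNFSF8 had 191 (SD 36.9) against 192 (SD 38.6), which is a log2 ratio of -0.01 (95% interval -0.39 to 0.37). In both of these pairs the receptor was higher while the ligand lay near 0.

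TNF itself, the inflammatory cytokine that names the family, had 249.6 normalized counts (SD 35.7) in irradiated and 234 (SD 111) in non-irradiated nodes. The log2 ratio of 0.09 had an interval from -0.43 to 0.62. Of its receptors, TNFRSF1A, which carries a death domain and is found on most cells, had 394 (SD 59.5) against 576 (SD 137). This gave a log2 ratio of -0.55 ± 0.18 SE (95% interval -0.93 to -0.17, adjusted p = 0.0865). TNFRSF1B, the TNF receptor of leukocytes and regulatory T cells, had 335 (SD 125) against 383 (SD 99.4), a log2 ratio of -0.19 ± 0.24 SE.

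The lymphotoxins signal for the organisation of the node. LTA, which is secreted as a trimer or anchored to the membrane with LTB, had 68.5 normalized counts (SD 8.45) in irradiated and 69.9 (SD 15.9) in non-irradiated nodes, a log2 ratio of -0.03. LTB had 179 (SD 56.4) against 221 (SD 47.8) with a log2 ratio of -0.31 ± 0.21 SE. LTBR, the stromal receptor of the form anchored with LTB, had 78.4 (SD 10) against 91.2 (SD 35.9) with -0.22 ± 0.22 SE. TNFSF14 encodes LIGHT, a T cell ligand that binds LTBR and the herpesvirus entry mediator HVEM. It had 62.4 (SD 14.1) against 89.1 (SD 7.73), a log2 ratio of -0.51 ± 0.16 SE (95% interval -0.86 to -0.17, adjusted p = 0.0825). HVEM, encoded by TNFRSF14, had 324 (SD 13.5) against 274 (SD 68.9), a log2 ratio of 0.24 ± 0.17 SE.

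Of the receptors that co-stimulate T cells, CD27 and TNFRSF9 were lower and TNFRSF4 and TNFRSF18 higher. CD27, carried by naive and memory T cells and memory B cells, had 269.8 normalized counts (SD 145) in irradiated and 404 (SD 96.5) in non-irradiated nodes, a log2 ratio of -0.58 ± 0.28 SE (adjusted p = 0.241). Its ligand CD70 had 62.6 (SD 4.78) against 51.5 (SD 17.6), at 0.28 ± 0.20 SE. TNFRSF9, which encodes the activation receptor 4-1BB, had 138 (SD 14.4) against 191 (SD 63), at -0.47 ± 0.20 SE (adjusted p = 0.178). T cell markers lay mostly on the same side, with 8 of 11 lower and 0 past the threshold. Their summed value was 12602 against 16486 normalized counts. The log2 ratio was -1.42 for CD8B, -1.41 for CD8A, -0.74 for CD3E, -0.66 for LCK and -0.53 for CD5. CD4, among the 3 markers that were higher, had 0.05. The part of T cells in the CD27 and TNFRSF9 values was not tested.

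TNFRSF4, which encodes OX40, had 252 normalized counts (SD 83.7) in irradiated and 193 (SD 48.2) in non-irradiated nodes, a log2 ratio of 0.39 ± 0.22 SE. OX40 is high on regulatory T cells, of whose 3 measured markers FOXP3 (-0.37) and IL2RA (-0.35) were lower and CTLA4 (0.20) higher, with none past the threshold. The OX40 ligand TNFSF4, of antigen-presenting cells, had 20.3 (SD 9.27) against 24.6 (SD 12.6), at -0.28 ± 0.32 SE. GITR, encoded by TNFRSF18, had 162 (SD 32.4) against 151 (SD 16.5), at 0.10, and its ligand TNFSF18 had 35.2 (SD 8.79) against 34 (SD 15.1), at 0.05. Both intervals of the GITR pair include 0, from -0.24 to 0.44 for the receptor and from -0.50 to 0.60 for the ligand. TNFSF15, which encodes the endothelial and myeloid cytokine TL1A, had 44 (SD 10.5) against 56.4 (SD 7.88), at -0.36 ± 0.17 SE (adjusted p = 0.242). All 3 measured endothelial markers were lower in irradiated nodes, at a summed 1563 against 1974 normalized counts, and CDH5, the cadherin of endothelial junctions, fell (log2 ratio -1.14 ± 0.18 SE, adjusted p = 0.00209). Their part in the TNFSF15 value was not tested.

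Among the death ligands, TNFSF10, which encodes TRAIL, had 1877 normalized counts (SD 361) in irradiated and 2079 (SD 201) in non-irradiated nodes, a log2 ratio of -0.15 with an interval from -0.48 to 0.18. FASLG, made by cytotoxic T cells and natural killer cells, had 125 (SD 26.1) against 106 (SD 54.4), at 0.24 ± 0.27 SE. Its receptor FAS, a death receptor outside the 31 genes, had 495 (SD 123) against 372 (SD 40.8), at 0.41 ± 0.17 SE (adjusted p = 0.178). Of 5 measured natural killer markers 4 were lower in irradiated nodes, with a median log2 ratio of -0.31 and 0 past the threshold. CD8A and CD8B were also lower, at -1.41 and -1.42, and did not pass. The part of these cells in the FASLG value was not tested.

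The TRAF adaptors connect the receptors to the kinases. TRAF3, which holds back the alternative NF-kappaB pathway, had 1126 normalized counts (SD 219) in irradiated and 971 (SD 386) in non-irradiated nodes, a log2 ratio of 0.21 ± 0.23 SE. TRAF6, which serves CD40 and RANK along with the interleukin-1 and Toll-like receptors, had 174 (SD 17.7) against 158 (SD 64), at 0.14 ± 0.22 SE. TRAF1, induced in activated lymphocytes, had 305 (SD 35.6) against 280.4 (SD 45.2), at 0.12 ± 0.15 SE. TRAF2, which brings the cellular inhibitors of apoptosis to the receptor, had 79.3 (SD 12.1) against 76.8 (SD 16.9), at 0.05 ± 0.17 SE. All 4 ratios were above 0 and smaller than their SE.

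The spread between samples was uneven. In irradiated nodes the SD was a median 19.4% of the group value over the members, and 24.9% in non-irradiated nodes, beside 22.9% and 32.2% over the panel. It was the smaller in irradiated nodes for 17 of 31 members (54.8%), and for 65.4% of the panel. A spread at least 2 times as large in non-irradiated nodes was found for 9 members (29.0%) and for 30.1% of the panel, so the family followed the panel here. TNFRSF14 had the widest contrast, with 4.15% in irradiated and 25.1% in non-irradiated nodes, followed by CD70 (7.63% and 34.3%) and CD40. In the other direction TNFSF14 had 22.6% and 8.67%, CD27 53.8% and 23.9%, and TNFRSF11A 12.1% and 5.6%. Whether the spread came from dogs or from the samples within a dog is not known.

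**Figure D4:**
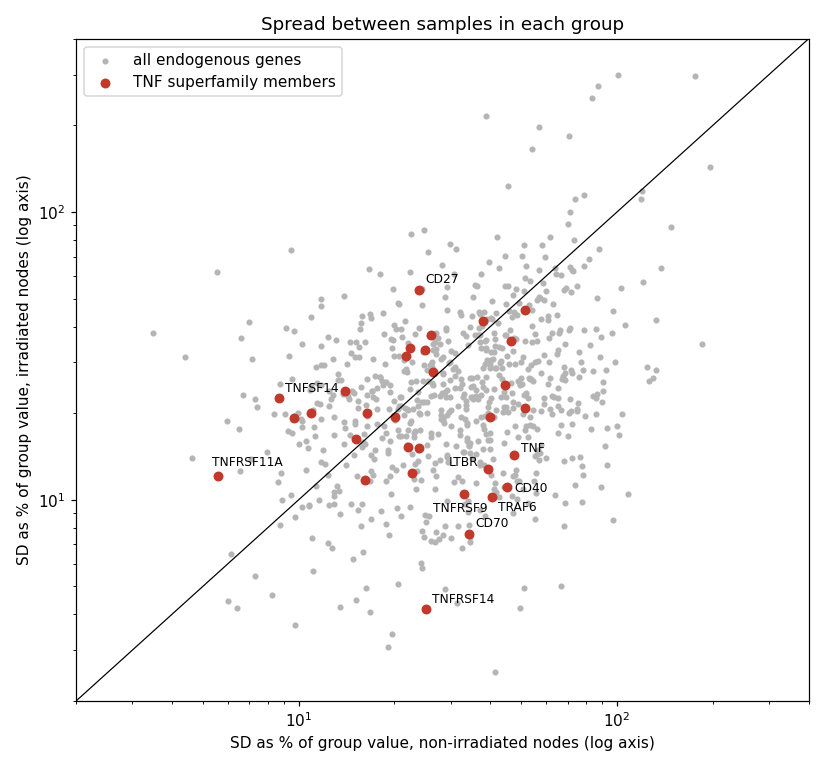
SD over the samples of a group as a percentage of the authors' group value, non-irradiated nodes on the horizontal and irradiated nodes on the vertical log axis, for the 31 members (red) and all 780 endogenous genes (grey). Points below the line of equality spread less in irradiated nodes, as TNFRSF14, CD70 and CD40 do, and TNFSF14, CD27 and TNFRSF11A lie above it.

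Genes that act downstream of the receptors were read from lists. Of 25 measured genes that carry TNF receptor signals to NF-kappaB and cell death, 13 were higher and 12 lower with a median log2 ratio of 0.06, and 0 passed. An unadjusted p under 0.05 was found for 8 of the 25 (32.0%), beside 21.9% of the panel, and this share was not tested. Among them were TANK, a TRAF-binding regulator (0.64 ± 0.24 SE, adjusted p = 0.131), and the subunit precursor NFKB1 (-0.50 ± 0.23 SE, adjusted p = 0.22). Of 14 measured genes that TNF induces in many cells, 5 had higher and 9 had lower values, the median being -0.22. PTGS2, the inducible cyclooxygenase, fell, with 132 (SD 52.3) against 263 (SD 62.9) normalized counts (log2 ratio -0.997 ± 0.24 SE, adjusted p = 0.0373), and the other 13 did not pass. Among them SELE had -0.68 and CCL2 -0.73, whereas CCL20 had 1.14, IL6 0.78, CXCL8 0.70 and CXCL10 0.56.

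Of 8 measured node genes that signalling through LTBR maintains in mice, 3 had higher and 5 had lower values, the median being -0.20. CXCL12, the stromal chemokine, fell, with 1882 (SD 254) against 4767 (SD 559) normalized counts (log2 ratio -1.34 ± 0.14 SE, adjusted p = 7.57e-05). CXCL13 stood at 0.85 ± 0.38 SE (adjusted p = 0.208), CCL21 at -0.43 ± 0.35 SE and CCL19 at 0.02 ± 0.28 SE. For these genes, fell denotes a lower value in irradiated than in non-irradiated nodes, not a change over time. The adjusted p of each gene called from the lists treats the 6 samples of a group as independent. With the 2 samples of a dog assumed identical, 0 genes of the panel passed.

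**Figure D5:**
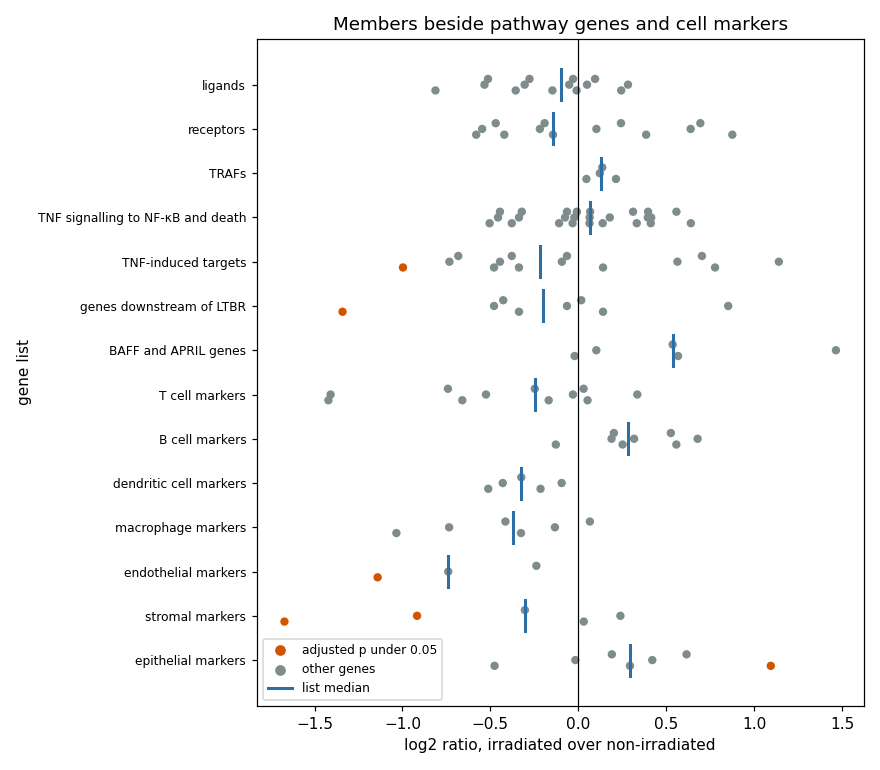
Points give the log2 ratio (irradiated over non-irradiated) of each gene of the ligands, receptors and TRAFs, the pathway lists and the cell marker lists, with the list median as a blue line. Orange points passed an adjusted p of 0.05 with the 6 samples of a group taken as independent: PTGS2, CXCL12, CDH5, PDGFRA, PDGFRB and KRT18, and no member.

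The relatives left out of the 31 genes were mostly on the higher side. TNFRSF13B (0.57 ± 0.18 SE, adjusted p = 0.0793), TNFRSF13C (0.54 ± 0.26 SE, adjusted p = 0.245) and TNFRSF17 (1.46 ± 0.64 SE, adjusted p = 0.202), the receptors of BAFF and APRIL on B cells and plasma cells, had log2 ratios above 0.5, and the ligands TNFSF13B (0.10) and TNFSF13 (-0.02) were near 0.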

How the data were processed

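RNA of 12 lymph node samples from 6 dogs was measured by the authors on the NanoString Canine IO panel and analysed with nSolver. Its version and handling of background were not given in the sources used here. The deposited signal is 1 normalized count per gene and group, with an SD that was assumed to be over the 6 samples of the group. Over the 20 housekeeping genes the mean log2 ratio was -2.62e-05, which marks the group values as geometric means scaled to these genes. The deposited table also holds the authors' own fold changes, limits and p-values, which were not used. The members and lists were chosen with earlier results of these data known.

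The log2 ratio was taken from the authors' values, and the SD on the log2 scale was obtained from the deposited linear SD by the lognormal relation. Variances were pooled over the groups (10 residual degrees of freedom) and moderated over 780 endogenous genes with limma (version 3.58.1, R 4.3.3), which added 4.09 degrees of freedom. P-values were two-sided and adjusted by Benjamini-Hochberg, threshold 0.05. In the assumed case of identical samples of a dog the SE is 1.58 times as large, with 4 degrees of freedom. An unpaired two-tailed test of group means, named by the methods for the study as a whole, was run as an alternative without moderation. Python 3.11.15, pandas 2.3.3, scipy 1.17.1 and matplotlib 3.10.9 were used for the rest. All 31 members were named with both values. From the lists, genes past the threshold or at a log2 ratio of at least 0.5 in size were to be named, and FAS and the BAFF and APRIL genes. Some list genes of that size were left unnamed. Other genes named from the lists were chosen after their values were seen. They were CCL19, CCL21, COL1A1, COL3A1, THY1, CD4, FOXP3, IL2RA, CTLA4, EPCAM, MUC1, CDH1, KRT8 and CD163. Of the members, 30 were matched by symbol to RefSeq (UU_Cfam_GSD_1.0). No sequences were used here. One gene that the naming rule covers is not reported here.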

Additional observations from a re-analysis of the deposited data

How the results depend on the processing

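Against 0 members past the threshold, 1 member passed in each of 5 alternatives. It was TNFRSF11A without moderation, with equal or with unequal variances, and TNFSF11 with a trend of the variance on level, with the minimum level of 20 normalized counts or with 10 normalized counts added. In that order 35, 29, 38, 38 and 37 genes of the panel passed, beside 28 in the main fit. A single member past the threshold is thus no result about the family. Without adjustment 9 members and 171 genes of the panel passed. The 28 genes of the panel became 7 by Benjamini-Yekutieli, 16 with the log SD by the delta method, and 0 both with the 2 samples of a dog assumed identical and with the SD taken over 3 values a group, where errors are larger and degrees of freedom fewer. Of the members' log2 ratios, TNFSF8 changed sign to 0.0185 when centred on the housekeeping median and to 0.0365 on the endogenous median, as did LTA to 0.0164 on the latter, all near 0 and none called. The other 29 members kept their direction in every alternative that gave them a value. The minimum level removed TNFRSF8. The median over members lay between -0.04 and 0.02 over the alternatives, and the number higher between 13 and 16. No paired analysis was possible because no dog gave nodes to both groups and each group is known only by its summary. Leaving out a sample or a dog was not run for the same reason.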

Other observations

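Several members lie side by side in the reference annotation of the dog genome, with no other protein-coding gene between them, and neighbours did not always stand on the same side. TNF (log2 ratio 0.09) lies between LTA (-0.03) and LTB (-0.31). TNFSF14 (-0.51) lies beside CD70 (0.28), TNFSF4 (-0.28) beside TNFSF18 (0.05), and TNFSF15 (-0.36) beside TNFSF8 (-0.01). Among receptors, LTBR (-0.22) lies beside CD27 (-0.58), with TNFRSF1A (-0.55) 1 gene further from LTBR, and these 3 were all lower in irradiated nodes. TNFRSF18 (0.10) and TNFRSF4 (0.39), also neighbours, were both higher. TNFSF12 (-0.53) lies beside TNFSF13 (-0.02). None of these differences between neighbours was tested.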
